A study of Mus musculus with 7 samples.

Results

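The genes described here are 44 markers of white blood cells: 24 of macrophages and other myeloid cells, 5 of class II antigen presentation, 5 found in most leukocytes, 6 of B cells and 4 of neutrophils. They were given as a list of names and were found on the arrays by matching probe accessions to current or older gene symbols. Of the 44, 41 had a probe and 31 were tested, among 16939 items tested in all, of which 11824 were named genes. No probe was matched to Cd68, H2-Eb1 or Ighm. A further 10 had a probe that did not enter the test, and they are described by their signals.

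RNA from 7 mouse prostate samples was hybridised to 2-colour Agilent arrays, all on the C57Bl/6 background and each against the same universal mouse reference RNA. The controls, 4 samples, were of ROSA(N1IC) mice, which the labels call wild-type for the Notch1 intracellular domain (NICD). The 3 PB-NICD samples came from ARR2PB-Cre;ROSA(N1IC) mice, in which a probasin-derived promoter drives Cre in prostate epithelium, the domain is switched on there, and the labels report prostatic intraepithelial neoplasia. The labels give no age, and the sources used here do not say whether each sample is 1 animal, so p-values measure the spread between these samples. Whole prostate RNA was used, in which fewer cells of a type and less RNA per cell cannot be told apart.

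Macrophages live in every tissue and take up dying cells and microbes. They carry immunoglobulin receptors, secrete the first component of complement and present peptides to helper T cells on class II molecules. Neutrophils are short-lived granulocytes that arrive in acute inflammation, and B cells carry immunoglobulin as their antigen receptor. The Notch1 intracellular domain is the active part of the Notch1 receptor, which enters the nucleus and, with the DNA-binding protein RBPJ, switches on target genes.

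A value is the log2 ratio of prostate over reference, and a change is the mean of the PB-NICD arrays minus the mean of the control arrays, with its standard error (SE). Changes were tested with limma, two-sided, with Benjamini-Hochberg adjustment over all 16939 items and a threshold of 0.05. Control 1, control 2 and PB-NICD 1 lay on slide 1, and the other 4 arrays on slide 2. The prostate channel was dim, with median spot signals of 69 to 107 over a background of 53 to 55, and 45.3% to 67.2% of spots per array were well above background. Over 10391 items measured on all arrays, the correlation was r = 0.921 to 0.96 between control arrays and 0.945 to 0.954 between PB-NICD arrays. Between a PB-NICD and a control array it was 0.816 to 0.904. These correlations are across genes that are not independent replicates. Notch1 read 0.049, 0.30, 0.84 and 0.67 on the 4 controls in order. For PB-NICD 2 it was 2.58 and for PB-NICD 3 it was 2.72. The PB-NICD 1 spot, an outlier by the scanner software, was not used, and it read 2.46 when kept. The sources used here do not say whether the Notch1 probe reads the transgene. Markers of prostate epithelium were present on every array that gave a value, with log2 ratios of 1.47 to 11.61.

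The background correction in these values is not the one first planned. The planned normexp fit, which models spot signals as a normal background plus an exponential signal, estimated a background mean of -220 in the prostate channel of PB-NICD 1, against -8.14 to -22.4 on the other 6 arrays. The median absolute deviation (MAD) of its log2 ratios was 0.0531, against 0.341 to 0.429 on the others. On PB-NICD 1 the lowest spot read -47741 after subtraction of its local background, and all 6 spots more than 30 units below theirs had a background that the scanner software had marked as an outlier. With the marked spots left out of the fit the estimate was -7.42, the MAD was 0.373, and the correlation of that array with the authors' deposited values went from 0.825 to 0.991. The change was made from these array measures, after the results of the planned correction and of its alternatives had been seen. Under the planned correction 0 of 31 members and 461 items were called, and 1 member had an unadjusted p below 0.05. The calls of Lcn2 and C1qa given next therefore depend on this choice.

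**Figure D1:**
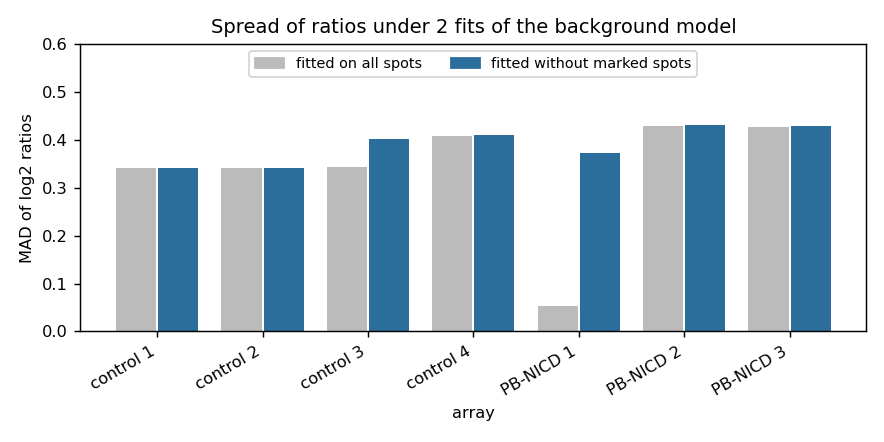
Spread of the log2 ratios on each array, as the MAD over all probes (y axis, log2 units), with the background model fitted on all spots (grey) or without the spots whose background was marked (blue). PB-NICD 1 stands at 0.0531 in grey and at 0.373 in blue, and the other 6 arrays lie between 0.341 and 0.430 under both fits.

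PB-NICD was set against control to ask which of these markers differ in prostates in which the Notch1 domain was switched on. Of the 31 tested members, 2 rose and none fell: Lcn2, a secreted protein that binds bacterial siderophores, and C1qa, a chain of the first component of complement. Over all items 8.09% were called, 3.5% higher and 4.59% lower, so 2 of 31 members is a share near that background. The median change of the members was 0.052, against -0.022 for all items. Of the 31 members, 25 changed by less than 0.25 in size, against 68.5% of all items, and 28 by less than 0.5, against 89.2%. For 28 members the 95% interval lay within 1 log2 unit on either side of 0, and for 92.2% of all items. The unadjusted p was below 0.05 for 5 of 31 members and for 20.9% of all items. All measured PB-NICD values lay above all controls for 3 of 31 members, against 10.5% of all items. They lay below all controls for 3 of 31, against 14.1%.

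**Figure D2:**
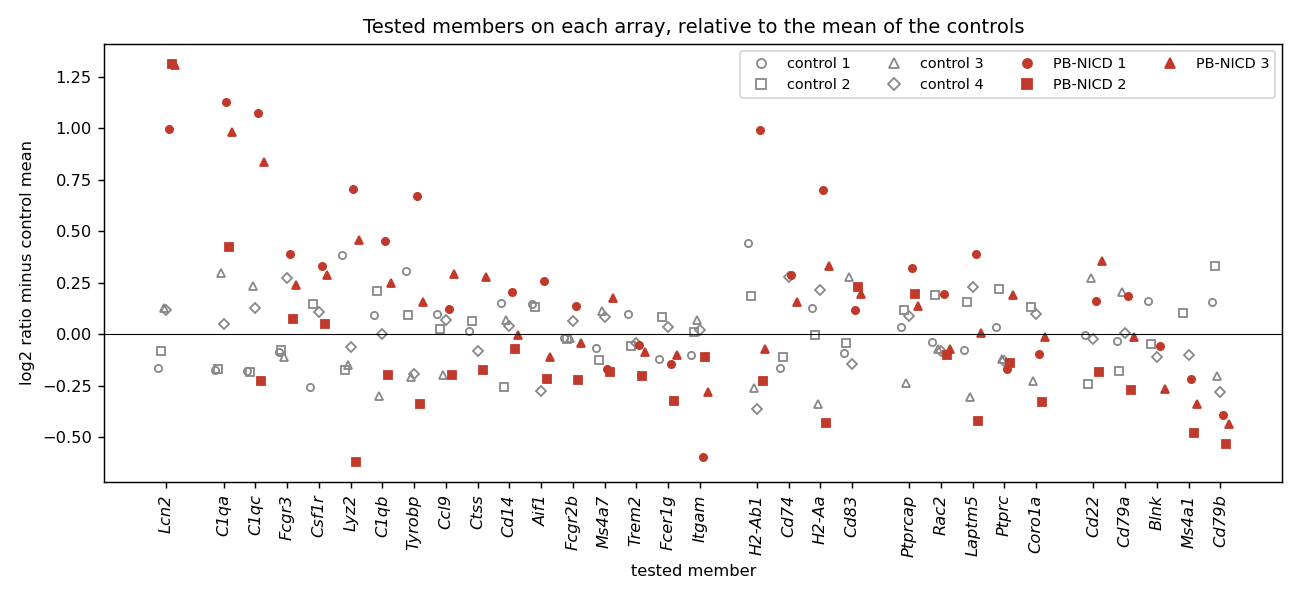
The log2 ratio of every tested member on each array minus the mean of its control values (y axis, log2 units), by cell type group from left to right: neutrophil, macrophage and myeloid, class II, pan-leukocyte and B cell. Open grey symbols are the 4 controls and filled red symbols the 3 PB-NICD arrays. For Lcn2, C1qa and Ptprcap all red symbols lie above the grey ones, and PB-NICD 2 (squares) is the lowest of the 3 for 23 of 28 members with 3 values.

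Because Lcn2 rose and the C1q chains are partners in 1 protein, the promoters of those held by the RefSeq table (GRCm38.p6) are shown, each 250 bases before to 50 after the start of the gene. The table held promoters of 31 of the 44 members but none of C1qa. The chains shown, C1qb and C1qc, were not called. Capitals mark matches, on either strand, to the core of the Notch partner RBPJ (TGGGAA), to NF-kB (GGANTTTCC), to C/EBP (TTGCNNAA) or to the myeloid factor PU.1 (GAGGAA). The Lcn2 window lies at chr2:32387690-32387989, that of C1qb at chr4:136886151-136886450 and that of C1qc at chr4:136892865-136893164, all on the minus strand.
Lcn2: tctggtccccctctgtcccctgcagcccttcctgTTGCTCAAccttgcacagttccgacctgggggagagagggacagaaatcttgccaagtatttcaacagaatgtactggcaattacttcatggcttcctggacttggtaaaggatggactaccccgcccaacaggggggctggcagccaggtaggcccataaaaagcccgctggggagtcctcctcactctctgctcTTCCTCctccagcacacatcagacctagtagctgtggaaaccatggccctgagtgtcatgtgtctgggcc
C1qb: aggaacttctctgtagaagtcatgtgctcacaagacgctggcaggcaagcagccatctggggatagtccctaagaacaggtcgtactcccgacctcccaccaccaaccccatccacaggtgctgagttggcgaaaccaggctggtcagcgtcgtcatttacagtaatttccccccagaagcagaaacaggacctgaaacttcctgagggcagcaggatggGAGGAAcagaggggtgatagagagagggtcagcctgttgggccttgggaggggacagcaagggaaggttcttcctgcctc
C1qc: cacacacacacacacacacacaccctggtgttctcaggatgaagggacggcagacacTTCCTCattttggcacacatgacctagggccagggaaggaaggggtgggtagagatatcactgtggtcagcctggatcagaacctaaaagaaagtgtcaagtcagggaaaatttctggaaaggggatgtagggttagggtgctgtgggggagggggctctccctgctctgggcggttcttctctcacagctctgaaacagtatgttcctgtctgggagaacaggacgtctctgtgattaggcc
The Lcn2 window held 1 match to C/EBP and 1 to PU.1, and the C1qb and C1qc windows held 1 match to PU.1 each. The letters for RBPJ and for NF-kB were in none of these 3 windows. Among 32851 windows of the same length, 28.3% held the PU.1 letters, 10.8% those of C/EBP, 25.6% those of RBPJ and 1.25% those of NF-kB. A match describes letters and shows no binding.

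Among the 4 neutrophil members, Lcn2 was the 1 that could be tested. Its protein is stored in neutrophil granules and is also made by many epithelia. The log2 ratios of Lcn2 were -0.046, 0.035, 0.25 and 0.23 on control 1 to control 4 and 1.11, 1.43 and 1.43 on PB-NICD 1 to PB-NICD 3. The PB-NICD arrays all lay above all 4 controls, with no overlap, as for 10.5% of all items. The mean went from 0.12 ± 0.15 (SD, n = 4) to 1.32 ± 0.18 (SD, n = 3), a change of 1.205 ± 0.13 (SE), or 2.31-fold (limma adjusted p = 0.000252). On the slides apart it was 1.12 within slide 1 and 1.19 within slide 2. In the authors' deposited table Lcn2 stood at 0.074 to 0.16 on the controls and at 1.30, 1.38 and 1.38 on the PB-NICD arrays. The probe was well above background on 2 of 4 control arrays and on all 3 PB-NICD arrays, and an offset of 50 was added to each channel, so the ratio to dim controls is understated. The software's processed signals, which have no such offset, gave a change of 2.04 (adjusted p = 0.0288), and the planned background correction gave 0.89 (adjusted p = 0.159). Over all alternatives the change was 0.81 to 2.04 and the adjusted p 4.44e-06 to 0.159.

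The other neutrophil members were not well above background on any array. S100a8 and S100a9, which form the calprotectin complex of neutrophil cytoplasm, had prostate signals of 51 to 60 and 54.5 to 75 over local backgrounds of 50 to 59.5 and 50 to 58. Csf3r, the receptor for granulocyte colony-stimulating factor, had signals of 50 to 62. No fold is given for these 3 genes. Their signals stayed near background on the same 3 arrays on which Lcn2 read 118, 226 and 204.5. Those of S100a9 were 54.5 to 64 on the controls and 64.5 to 75 on the PB-NICD arrays, and those of S100a8 and Csf3r overlapped. With no filter on dim probes S100a9 did not pass (limma adjusted p = 0.345). Probes this dim cannot show whether neutrophils were present, and the cell source of the Lcn2 signal was not tested. Of 23 further neutrophil and granule genes 11 were tested, none rose, and Il1r2, a decoy receptor for interleukin 1, fell by 0.97 ± 0.22 (adjusted p = 0.0219). Slpi, a secreted protease inhibitor, changed by -0.48 (adjusted p = 0.206). The median of that list was -0.061, and on single arrays its median difference from the control mean was -0.43 to -0.073 in PB-NICD and -0.10 to 0.099 in the controls.

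**Figure D3:**
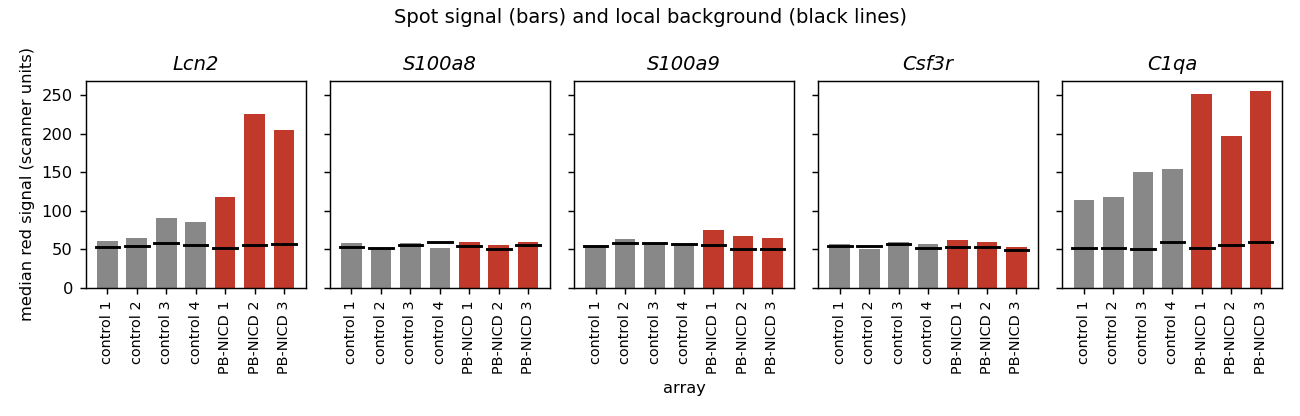
Median prostate-channel signal (bars, scanner units, from 0) and local background (black lines) of the 4 neutrophil members and C1qa on each array, controls in grey and PB-NICD in red. Lcn2 rises above its background on PB-NICD arrays, to 118, 226 and 204.5. S100a8, S100a9 and Csf3r, not well above background on any array, stay between 50 and 75 on all 7 arrays.

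C1q is built of A, B and C chains made mostly by macrophages, and it starts the classical complement pathway. C1qa read 1.69, 1.70, 2.17 and 1.92 on control 1 to control 4 and 3.00, 2.29 and 2.85 on PB-NICD 1 to PB-NICD 3. The groups did not overlap, and the lowest PB-NICD value was that of PB-NICD 2. The change was 0.845 ± 0.18, or 1.80-fold (adjusted p = 0.0167), with 1.30 within slide 1 and 0.53 within slide 2. It was 0.70 with PB-NICD 1 left out (adjusted p = 0.0693) and 0.775 with PB-NICD 3 left out (adjusted p = 0.0671), so the call rests on these 2 arrays. The call was also lost with a normexp offset of 16 (0.71, adjusted p = 0.0732), scale normalization (0.66, adjusted p = 0.0713), the sample channel alone (0.656, adjusted p = 0.0536), median centring (0.446, adjusted p = 0.0714) and the software's processed signals (0.504, adjusted p = 0.549). The planned background correction gave 0.11 (adjusted p = 0.947), and over all alternatives the adjusted p of C1qa ranged from 0.00558 to 0.947.

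C1qc read 2.57, 2.57, 2.98 and 2.87 on the controls and 3.82, 2.52 and 3.58 on PB-NICD 1 to PB-NICD 3. PB-NICD 2 lay below all controls and the other PB-NICD arrays above them. Its change was 0.56 ± 0.27 (adjusted p = 0.262), and it was 0.955 without PB-NICD 2 (adjusted p = 0.00978) and 0.30 without PB-NICD 1. C1qb changed by 0.17 ± 0.17 (adjusted p = 0.653), with a 95% interval of -0.21 to 0.55. With the sample channel alone C1qc passed (0.78, adjusted p = 0.0114), whereas its change was negative with the software's processed signals (-0.24, adjusted p = 0.846) and with the planned background correction (-0.30, adjusted p = 0.855), so that neither its call nor its direction is settled here. Whether the chains differ from each other in their change was not tested.

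Itgam, the alpha chain of the integrin Mac-1 of macrophages and neutrophils, read -0.13, -0.022, 0.039 and -0.012 on the controls and -0.63, -0.14 and -0.31 on PB-NICD 1 to PB-NICD 3. All PB-NICD values lay below the controls, as for 14.1% of all items. The change was -0.33 ± 0.13 and did not pass (adjusted p = 0.172). The probe was well above background on 3 of 7 arrays, and the other Itgam probe gave 0.25.

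The remaining 13 macrophage and myeloid members had overlapping groups and changes from -0.19 to 0.23. The receptors for immunoglobulin G, Fcgr3, an activating receptor, and Fcgr2b, an inhibitory one, changed by 0.23 (adjusted p = 0.362) and -0.044 (adjusted p = 0.88). The other Fcgr3 probe gave 0.15. The other Fcgr2b probes gave -0.20 and 0.32, the latter on a probe well above background on no control array. Fcer1g, the signalling chain that Fcgr3 needs, changed by -0.19 (adjusted p = 0.447), and Tyrobp, the related adaptor of Trem2, by 0.16. Trem2 itself, a lipid-sensing receptor of macrophages, stood at -0.11. These receptor genes are close in sequence, so the Fcgr3 and Fcgr2b probes may read relatives. Csf1r, the receptor on which most tissue macrophages depend, changed by 0.22 ± 0.15 on its brightest probe (adjusted p = 0.451), and its other probes gave -0.24 and -0.026.

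Lyz2, the lysozyme of macrophages, has a close copy, Lyz1, which the array may not separate. It read 1.52 to 2.08 on the controls and 2.40, 1.08 and 2.15 on PB-NICD 1 to PB-NICD 3, so that PB-NICD 2 was the lowest of the 7 arrays and PB-NICD 1 the highest. Its change was 0.18 ± 0.28. Cd14, the coreceptor for bacterial lipopolysaccharide, changed by 0.044, the lysosomal protease Ctss by 0.052, the actin-bundling protein Aif1 by -0.024, Ms4a7 by -0.059 and the chemokine Ccl9 by 0.073. Other probes gave 0.31 for Ms4a7 and 0.009 for Lyz2. Of the 16 tested myeloid members, 10 had a positive and 6 a negative change, and their median was 0.063.

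A total of 7 myeloid members were not tested. Itgax, the alpha chain of the integrin CD11c, and Mrc1, the mannose receptor, were not well above background on any array, with signals of 60 to 68 and 54 to 77. The Mrc1 signals were 54 to 63 on the controls and 67 to 77 on the PB-NICD arrays, and those of Itgax overlapped. With no filter on dim probes Mrc1 changed by 0.41 (limma adjusted p = 0.186) and Itgax by -0.245 (adjusted p = 0.362). In those ratios all PB-NICD values lay above the controls for Mrc1 and below them for Itgax, and neither gene passed. The scavenger receptor Cd163 was well above background on 2 PB-NICD arrays and no control. With no filter on dim probes it read 0.42, 0.48, 0.25 and 0.18 on the controls and 0.92, 0.50 and 0.83 on PB-NICD 1 to PB-NICD 3. All PB-NICD values lay above the controls, as for 10.5% of the items tested, with PB-NICD 2 close to control 2. The Cd163 change of 0.42 did not pass (adjusted p = 0.147). Gpnmb was well above background on 1 PB-NICD array and no control. Adgre1, the F4/80 antigen of macrophages, Mpeg1, a pore-forming protein, and the chemokine Ccl6 were bright, but outlier spots left too few values. With those spots kept, Adgre1 changed by -0.21 (adjusted p = 0.529), Mpeg1 by 0.021 (adjusted p = 0.952) and Ccl6 by 0.17 (adjusted p = 0.796). Ccl6 then read 2.82, 1.36 and 2.25 on PB-NICD 1 to PB-NICD 3 against 1.63 to 2.28 on the controls, with PB-NICD 2 again the lowest of the 7.

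**Figure D4:**
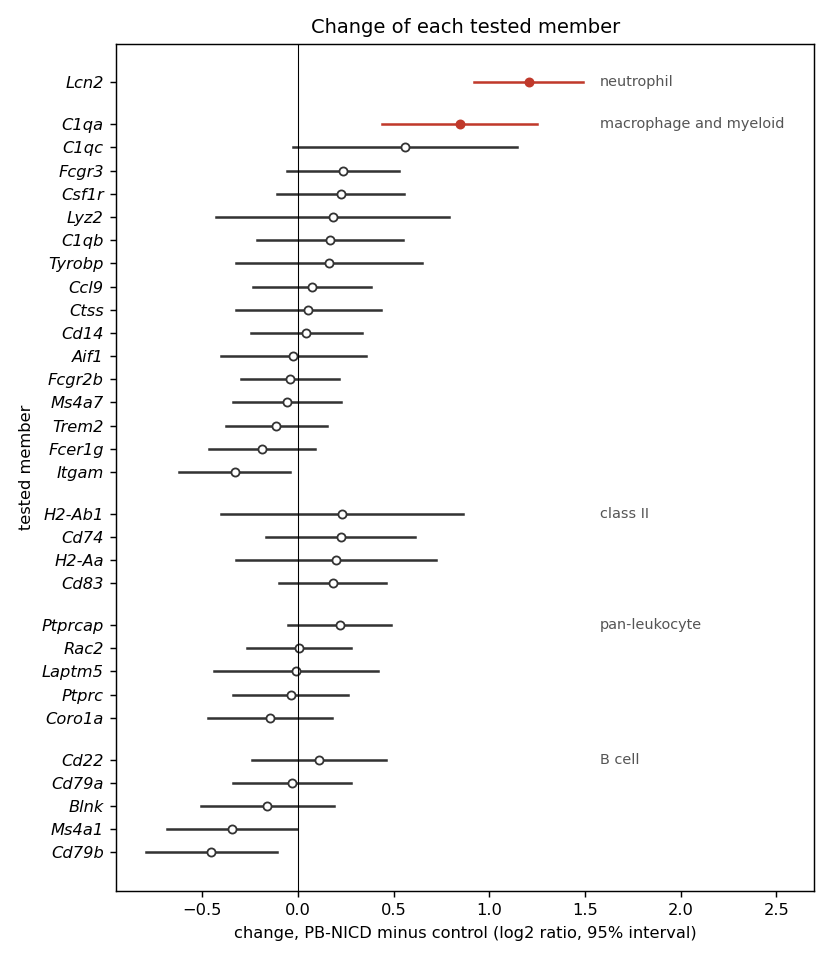
Change of each tested member, PB-NICD minus control, in log2 ratio (x axis), with its 95% interval, by cell type group. Filled red points passed an adjusted p of 0.05 and open points did not. Lcn2 (1.205) and C1qa (0.845) are red, and the other 29 members lie between -0.45 and 0.56.

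Class II molecules carry peptides on an alpha and a beta chain, and Cd74, the invariant chain, holds the groove until it is loaded. H2-Ab1 read 3.58, 3.32, 2.88 and 2.77 on the controls and 4.12, 2.91 and 3.06 on PB-NICD 1 to PB-NICD 3, with PB-NICD 1 above all controls and the others among them. Its change was 0.23 ± 0.29 (adjusted p = 0.715), and its other probes gave 0.37 and 0.59. H2-Aa read 1.68, 1.55, 1.22 and 1.77 on the controls and 2.25, 1.12 and 1.88 on PB-NICD 1 to PB-NICD 3, a change of 0.20 ± 0.24 (adjusted p = 0.702). PB-NICD 2 was below and the other PB-NICD arrays above the controls.

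Cd74 read 0.92, 0.97 and 1.36 on control 1, control 2 and control 4 and, in PB-NICD, 1.37 on the first and 1.24 on the third array, the spots on control 3 and PB-NICD 2 being outliers. The change was 0.22 ± 0.17 (adjusted p = 0.526). Cd83, which marks activated antigen-presenting cells and stabilises class II on their surface, changed by 0.18 (adjusted p = 0.469). All 4 tested members had a positive change and none passed, with a median of 0.21. That median was 0.53 within slide 1 and 0.078 within slide 2, all 4 genes included. Without PB-NICD 1, where Cd74 had too few values to be tested, it was -0.052 over 3 genes, with -0.052 for H2-Aa, -0.15 for H2-Ab1 and 0.21 for Cd83. Of 11 further class II pathway genes tested, none rose and Ifi30, a thiol reductase of antigen processing, fell by 0.44 ± 0.11 (adjusted p = 0.0296). H2-DMb1, which edits the peptides in class II, had the largest change of that list, 0.635 (adjusted p = 0.0575).

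Genes shared by most leukocytes did not pass in either direction, and their median change was -0.01. Ptprcap, which binds the phosphatase CD45, read -0.91, -0.83, -1.18 and -0.86 on the controls and -0.62, -0.75 and -0.81 on the PB-NICD arrays. All 3 PB-NICD values lay above the controls, and the change was 0.22 ± 0.12 (adjusted p = 0.355). Ptprc, which encodes CD45 itself, read -1.18, -0.998, -1.34 and -1.35 on the controls and -1.39, -1.36 and -1.03 on PB-NICD 1 to PB-NICD 3. The groups overlapped, with a change of -0.039 ± 0.14 (adjusted p = 0.915), and its 95% interval was -0.34 to 0.26. Coro1a, an actin regulator of leukocytes, read -0.60, -0.96 and -0.64 on control 2 to control 4 and -0.83, -1.06 and -0.74 on the PB-NICD arrays, also with overlap. Its change was -0.15 ± 0.15 (adjusted p = 0.641). The GTPase Rac2 changed by 0.006 and the lysosomal protein Laptm5 by -0.01. Other probes gave -0.11 for Rac2, 0.195 for Laptm5, -0.27 for Coro1a and, on dim probes, -0.21 and -0.27 for Ptprc.

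Among B-cell members none passed, 4 of 5 had a negative change and the median was -0.16. Cd79b, a signalling chain of the antigen receptor, read -1.03, -0.85, -1.39 and -1.47 on the controls and -1.58, -1.72 and -1.62 on PB-NICD 1 to PB-NICD 3. All PB-NICD values lay below the controls. The change was -0.45 ± 0.16 (adjusted p = 0.112), and it passed with the authors' deposited table (-0.43, adjusted p = 0.0163). Its partner chain Cd79a changed by -0.033 ± 0.14 (adjusted p = 0.931), with overlapping groups.

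Ms4a1, which encodes CD20, read -0.51 and -0.72 on control 2 and control 4 and -0.83, -1.09 and -0.95 on the PB-NICD arrays. The spots on the other controls were outliers, so its lower position rests on 2 controls, and the change was -0.345 ± 0.15 (adjusted p = 0.229). Blnk, an adaptor downstream of the antigen receptor, read 1.77, 1.56 and 1.499 on control 1, control 2 and control 4 and, in PB-NICD, 1.56 on the first and 1.35 on the third array, with overlap and a change of -0.16 ± 0.15 (adjusted p = 0.625). Cd22, an inhibitory receptor of B cells, changed by 0.11 (adjusted p = 0.76). Of 14 further B-cell and plasma-cell genes tested, Sdc1, a proteoglycan of plasma cells and epithelia, rose by 0.94 ± 0.13 (adjusted p = 0.00124) and Derl3, a degradation factor of secretory cells, fell by 2.80 ± 0.16 (adjusted p = 4.69e-06).

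The PB-NICD arrays differed from each other in the level of many members at a time. PB-NICD 2 was the lowest of the 3 for 23 of 28 members with 3 values, and for 14 of 15 in the macrophage and myeloid group, against 38.6% of all items. PB-NICD 1 was the highest for 19 of 28 members and for 32.3% of all items. The median difference of the members from their control means was 0.20 on PB-NICD 1 and 0.16 on PB-NICD 3 but -0.20 on PB-NICD 2, and it was -0.11 to 0.020 on the control arrays. For all items these medians lay between -0.049 and 0.024. The median change of the members was 0.25 within slide 1 and 0.009 within slide 2, with -0.024 and -0.022 for all items. It was -0.052 without PB-NICD 1 and 0.18 without PB-NICD 2. Members share their RNA on each array, so this is a description of these 3 samples, and it was not tested.

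In 9 further lists of immune genes, 118 distinct genes were tested, of which 5 rose and 7 fell, with a median of -0.036. Over all items 3.5% were called higher and 4.59% lower, so the shares in these lists are near that background. Among other macrophage and monocyte genes, the receptor Sirpa rose by 1.10 ± 0.18 and the galectin Lgals3 by 0.82 ± 0.18. In the same list the secreted phosphoprotein Spp1 fell by 0.79 ± 0.17 and the lipid-droplet protein Plin2 fell by 0.71 ± 0.13. Id2, an inhibitor of basic helix-loop-helix factors, rose by 1.03 ± 0.17, while Cebpb, a factor of myeloid differentiation, changed by -0.43 (adjusted p = 0.0879). Among signalling adaptors and receptors, the hyaluronan receptor Cd44 fell by 0.70 ± 0.19 (adjusted p = 0.0435) and Lcp2 changed by -0.59 (adjusted p = 0.0712). Dock2, in the same list, rose by 0.565 ± 0.14 (adjusted p = 0.0444) on 2 PB-NICD and 3 control arrays. Cd24a, listed with dendritic cells, fell by 2.06 ± 0.33 on 2 arrays in each group, and Fscn1 changed by -0.48 (adjusted p = 0.0955). Several of these genes, such as Lgals3, Id2, Cd44, Cd24a and Sdc1, are also expressed by epithelial cells.

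T and NK cell genes gave no call among 8 tested, with a median of 0.11 and largest changes of 0.38 for Nkg7 and 0.25 for Cd8a. Mast cell genes gave none among 4, with -0.22 for the tryptase Tpsb2 and 0.081 for the receptor Kit. Among markers of other cell types, basal epithelial markers had a median difference of -0.99 to -0.77 on the PB-NICD arrays against -0.093 to 0.20 on the controls, and 2 of 4, Krt5 and Krt15, fell. Smooth muscle markers stood at -0.79 to -0.21 against -0.40 to 0.31, with overlap, and 1 of 4, Cnn1, fell. Of 7 prostate epithelium markers Tmprss2 fell, and their median lay at -0.18 to -0.007 against -0.19 to 0.19, also with overlap. The part of these cell types in the changes of Lcn2 and C1qa was not tested.

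**Figure D5:**
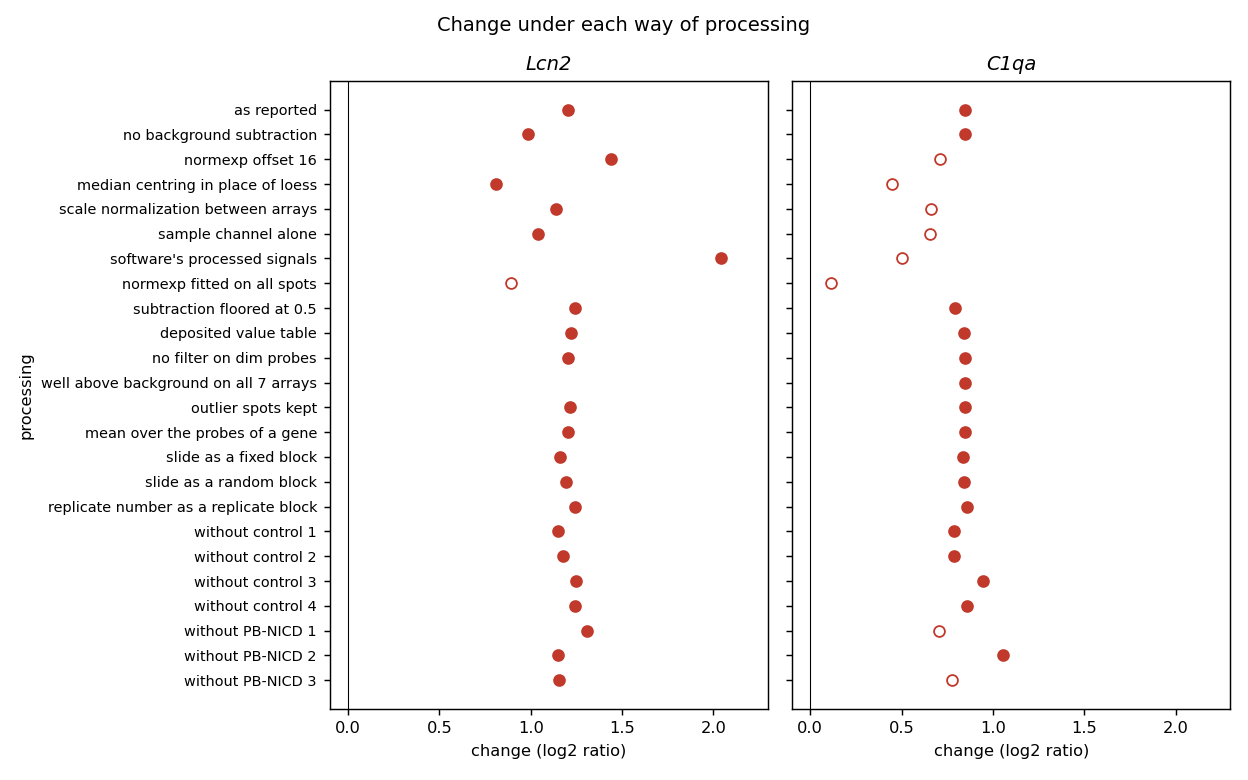
Change of Lcn2 (left) and C1qa (right), PB-NICD minus control in log2 ratio (x axis), as reported and under each other way of processing (rows); filled points passed an adjusted p of 0.05. Lcn2 passed in all but the fit on all spots and was not tested where every array had to be above background, and C1qa lost its call under 8 of 23.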

How the data were processed

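Agilent Feature Extraction 10.7.3.1 gave, per the file headers, a spot intensity for each channel, and the deposited median intensities of spot and background are not normalized. LogRatio, which per the file headers holds log10 values of red over green after the software's processing, gave the alternative with processed signals. The authors' deposited value table behaves as log2 values with medians near 0, and the sources used here do not give its normalization. Other deposited columns are flags (other) of 0 or 1 per spot.

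Background was corrected with normexp (offset 50), with parameters fitted without spots whose local background was marked as an outlier, then loess within arrays, in limma 3.58.1 under R 4.3.3. The normexp fit on all spots had been planned and was replaced after its results and those of its alternatives had been seen, because it failed on PB-NICD 1; the choice used measures of the arrays, not calls of genes. Control and outlier spots had no weight in loess, and outlier spots were set to missing. Several loess weightings and rules for the brightest probe were tried, and those that matched earlier results of these data were kept. Probes well above background on at least 3 arrays, with 2 values per group, were tested, and the brightest probe stood for a gene. Accessions gave symbols for 24375 of 41174 probes through RefSeq (GRCm38.p6). The number of arrays limits the precision. The test was checked on simulated data.

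The members and lists were chosen with earlier results of these data known. Values on every array are given for called members, for the 3 largest changes of each group and for tested members whose groups do not overlap. A gene of another list is named if it passed or had 1 of the 2 largest changes of its list. Alternatives covered background, scaling, filters, probes, slide, replicate number and each array left out.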

Additional observations from a re-analysis of the deposited data

Results flagged for a closer look

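Fcgr3 on control 4 read 0.46, against 0.076 to 0.11 on the other 3 controls, and stood apart from them by more than Dixon's 95% critical value for 4 samples, with a gap of 0.916 of the range. Fcgr2b on the same array read -0.043, against -0.13 to -0.12 on the others, with a gap of 0.936. Chance alone marks about 1 in 20 groups in this way, and 22 members with 4 control values were checked.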

How the results depend on the processing

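Besides the values reported, 23 other ways of processing were run. Among them, the fit of normexp on all spots was the correction first planned, and it became an alternative when it was replaced after the data had been seen. Subtraction floored at 0.5 was added after the data had been seen. The count of members called was 1 with a normexp offset of 16, with scale normalization between arrays and with the software's processed signals (Lcn2 each time), 1 where all 7 arrays had to be above background (C1qa), 14 with median centring in place of loess (13 higher, 1 lower), 4 with the authors' deposited table (Itgam and Cd79b lower, C1qa and Lcn2 higher) and 0 with normexp on all spots (1 at an unadjusted p below 0.05, limma). Leaving out each array gave 1 to 3. Items called were 4575 with median centring, 898 with the sample channel alone, 461 with normexp on all spots and 3207 with the deposited table, and 724 to 1545 with an array left out (724 without PB-NICD 2, 865 without PB-NICD 1). Genes called in the related lists of immune genes were 35, 4 and 33 under median centring, normexp on all spots and the deposited table, and 7 to 15 with an array left out. The share of called items that were higher was 43.3%, against 93.8% with median centring, 15.2% with normexp on all spots, 54.7% without background subtraction and 54.9% in the sample channel. Median centring moved the median of all items to 0.27, and relative to it the median of the members was 0.17; under it the changes of Fcer1g and Trem2 turned to 0.54 and 0.56. The cause of these moves was not tested beyond the fitted values of PB-NICD 1 given above. Of 691 changes of single members under these ways, 665 kept their side of the threshold and 76 changed sign. With replicate number as a block, 2 of 27 members and 915 items were called, and no other call of a member changed. Same-numbered arrays had deviations correlated at 0.32, -0.27 and 0.05, and control 2 and PB-NICD 2 lay on different slides. With PB-NICD 1, control 1 and control 2 of its slide correlated at 0.317 and 0.372, and control 3 and control 4 at -0.325 and -0.362. Slide and number are mixed in these values, so they cannot show whether the numbers pair the samples. Dim signals limit what can be seen of S100a8, S100a9, Csf3r, Itgax, Mrc1, Cd163 and Gpnmb.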
